A study of Mus musculus with 102 samples.

Results

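TTKO cells are mouse embryonic stem cells of strain C57BL6/J with frameshift mutations in all alleles of Tet1, Tet2 and Tet3. The mutations were made to abolish the activity of these proteins, which oxidise methylated cytosine. In these cells Cre protein then removes the catalytic exons of Dnmt3a and Dnmt3b. The capture samples collected 17 and 29 days after Cre were compared, 3 replicates at each day, which are 6 of the 102 samples of the series. The authors joined the replicates of a day in 1 column, so each CpG has 1 level and 1 read count per day. All 2177608 CpGs of the capture table were used, of 21342492 CpGs on the 21 chromosomes of the mm9 mouse genome that the table covers. Every CpG of the table has at least 50 reads in each column. As references the table also holds TTKO cells at day 0, which were not transduced and still had both Dnmt3 enzymes, TTKO cells at days 4, 8, 10 and 13 after Cre, and the parental line at day 0, called wild type here, which has intact TET genes and functional Dnmt3a and Dnmt3b alleles with loxP sites around the exons that Cre would remove. The mock, cells that received the transduction medium without Cre, was not captured, but was measured together with Cre-treated cells in a second assay of target regions, where the replicates were kept apart.

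In mammals the methyl group sits mostly on the cytosine of CpG dinucleotides. Dnmt3a and Dnmt3b place new methyl groups, Dnmt1 copies existing ones onto the new strand at each cell division, and TET proteins start their removal. In cells without TET and Dnmt3 activity the level of a CpG is therefore governed mainly by copying, and incomplete copying shows as a loss that goes on over divisions.

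Several features limit the cells as a model. The TET mutations were made in 1 line and carried on in 1 picked clone, and the study's methods state that Cre did not excise every Dnmt3 allele. Transduction took place on feeder cells, after which the culture was feeder-free. The excision could not be checked from coverage, since the table keeps a CpG only where every column has at least 50 reads and so would leave out CpGs of removed exons. A methylation level is an average over all cells and alleles, so a level that is lower in every cell and a smaller share of cells with the mark cannot be told apart.

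Reads on CpGs summed to 740590811 at day 17 and to 664206219 at day 29, with medians of 269 and 242 reads per CpG. The quartiles were 169 and 428 reads at day 17, and 152 and 383 reads at day 29. A level is the percentage of bisulfite reads in which the cytosine was called methylated. Intervals given below are 95% Wilson intervals and cover counting error only, since the pooled columns hold no spread between replicates.

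Single CpGs that stand for the 3 kinds of course after day 17 are shown first, with 20 bases to each side on the forward strand of mm9 and the CpG itself in capitals. They were chosen by their levels, from CpGs with at least 50% methylation at day 0 and at least 100 reads in every TTKO column. The largest falls from day 17 to day 29 were at:
Fall near Plxnc1, chr10:94404423-94404424: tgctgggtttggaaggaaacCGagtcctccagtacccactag
Fall near Pdpr, chr8:113667428-113667429: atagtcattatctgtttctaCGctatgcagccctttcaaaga
Fall near Pdpr, chr8:113667458-113667459: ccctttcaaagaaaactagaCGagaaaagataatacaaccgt
The largest rises were at:
Rise in Hcn4, chr9:58706994-58706995: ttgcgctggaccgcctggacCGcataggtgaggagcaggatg
Rise in Kcna3, chr3:106840795-106840796: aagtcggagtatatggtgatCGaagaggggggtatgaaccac
Rise nearest to Xcl1, chr1:166929605-166929606: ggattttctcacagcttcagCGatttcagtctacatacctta
The flattest plateaus were at:
Plateau near Myst4, chr14:22303320-22303321: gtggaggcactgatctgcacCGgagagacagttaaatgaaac
Plateau in Tmem44, chr16:30515514-30515515: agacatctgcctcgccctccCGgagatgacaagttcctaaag
Plateau nearest to Gm9843, chr16:76539972-76539973: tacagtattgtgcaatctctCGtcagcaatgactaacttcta

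Most CpGs stood lower at day 29 than at day 17. The mean level over all CpGs was 35.8% at day 0, then 34.6%, 31.6%, 29.4% and 27.7% at days 4, 8, 10 and 13, and lastly 24.0% at day 17 and 19.6% at day 29. It was thus lower at every later day, and the last 12 days took 4.44 percentage points, so that 81.5% of the day 17 level was kept. Wild-type cells had a mean of 23.4% over the same CpGs. By value, 75.2% of CpGs were lower at day 29 and 23.6% were higher, with a median change of -1.97 points.

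In Fisher's exact test of the pooled reads, two-sided and Benjamini-Hochberg adjusted over all CpGs with a threshold of 0.05, 484912 of 2177608 CpGs were lower at day 29, which is 22.3% of all tested. Only 1716 CpGs, 0.0788% of all tested, were higher. At an unadjusted p under 0.05 the counts were 671731 lower and 10863 higher. The test compares pooled libraries. With an assumed over-dispersion of 0.0055 between 3 replicates, 236260 CpGs were lower and 43 higher. The study fitted this value to its target-region data. For the capture it reports that a binomial error described the variability between replicates well. The called-lower CpGs had mean levels of 62.9%, 39.96% and 27.8% at days 0, 17 and 29, and their median change was -11.98 points with the largest at -42.5 points.

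Of 795721 CpGs that were methylated to 50% or more before Cre and had 100 reads at both days, 44.6% were lower by 10 points or more and 22.6% lay within 5 points of their day 17 level. A rise of 10 points or more was seen at 475 of them, or 0.0597%. Counting error alone gave a change an SD of 3.76 points in the median CpG of this class. A level within 5 points therefore lay within about the counting error, and single plateaus were not separable from slow loss at this depth.

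The late change depended on how methylated a CpG had been before Cre. CpGs with at least 50% at day 0, 880934 in number, went from 74.8% at day 0 through 68.2% at day 8 and 53.3% at day 17 to 44.3% at day 29. CpGs with 20 to 50% at day 0, 240569 in number, went from 34.9% through 25.3% and 14.4% to 8.71%. The 1056105 CpGs under 20% at day 0 went from 3.55% to 1.79% at day 17 and 1.46% at day 29. The highly methylated class thus kept 83.1% of its day 17 level and the intermediate class 60.3%.

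**Figure D1:**
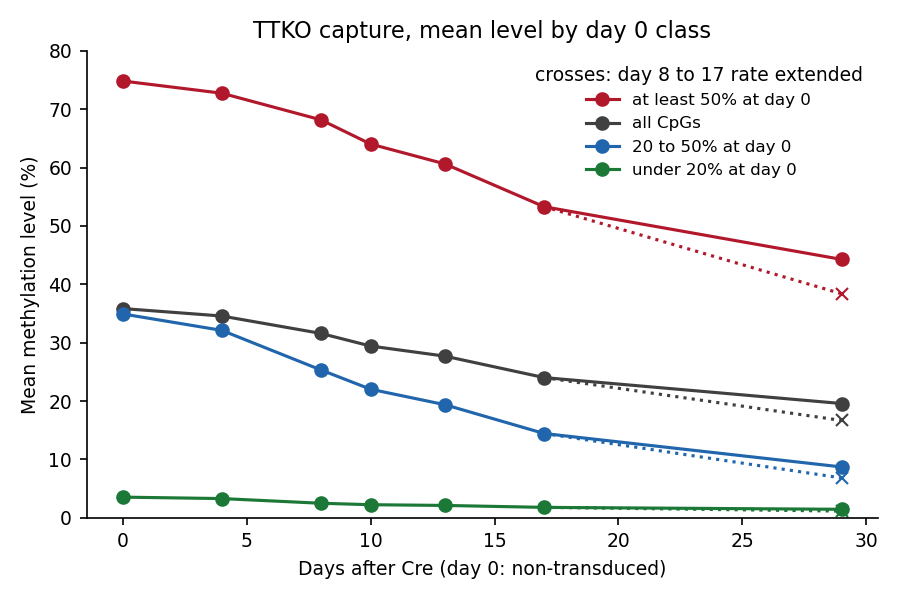
Mean methylation level in percent against days after Cre for all CpGs of the TTKO capture and for 3 classes of day 0 level; each point is 1 pooled column of 3 replicates. Dotted lines and crosses extend the rate of days 8 to 17 to day 29, and the measured day 29 levels of 44.3%, 19.6%, 8.71% and 1.46% lie above the crosses.

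In finer bins of the day 0 level the share kept followed a U shape. It was 95.4% for CpGs under 5% at day 0, 71.8% between 5 and 10%, 60.9% between 10 and 20% and 58.1% between 20 and 30%, the lowest of the 11 bins. Above that it was 59.4%, 62.0%, 65.4%, 71.7% and 80.7% in the bins of 10 points from 30 to 80%. CpGs between 80 and 90% kept 89.3%, and those between 90 and 100% kept 94.8%. The lowest bin stood near 1.20% at day 29, where little could still be lost.

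In points, the change was largest in the bin of 60 to 70%, at -11.0 points, where 55.8% of CpGs were called lower. In the bin of 90 to 100% it was -4.14 points, with 10.6% called lower, from 79.4% at day 17 to 75.2% at day 29. CpGs under 5% were called lower at 0.208% and changed by -0.0578 points on average.

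Loss was slower after day 17 than in the days just before. Taken as 100 times the natural log of the ratio of mean levels divided by the days between, the class with at least 50% at day 0 lost 2.74% per day in days 8 to 17, and 1.55% in days 17 to 29. The intermediate class lost 6.24% and then 4.21% per day. Had the rate of days 8 to 17 gone on, these classes would have stood at 38.4% and 6.83% at day 29, below the 44.3% and 8.71% measured. The ratio of the later to the earlier rate ranged over the 11 bins from 0.402 at 90 to 100% to 0.736 under 5%.

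Rates within the earlier period were uneven, however. The highly methylated class lost 3.13% per day from day 8 to 10, 1.82% from day 10 to 13 and 3.22% from day 13 to 17. The later rate of 1.55% is thus near that of days 10 to 13 and below the other intervals of that period, and each interval rests on 2 pooled columns.

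**Figure D2:**
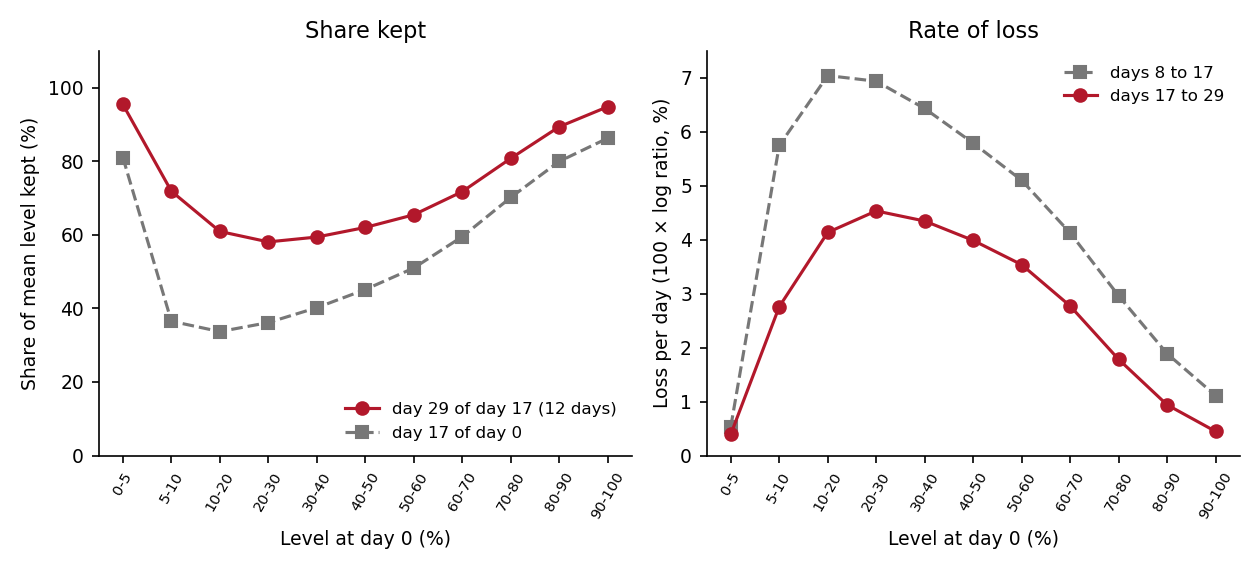
The left panel plots the share of the mean level kept (percent) and the right panel the loss per day (100 times the natural log ratio, percent), both against bins of the day 0 level. The share kept from day 17 to day 29 was lowest at 58.1% in the bin of 20 to 30%, and the later rate lay below that of days 8 to 17 in each of the 11 bins.

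For single CpGs the slowing was tested with a log-link binomial fit of days 8, 10, 13, 17 and 29, in which a constant share lost per day is a straight line and the slope may change at day 17. Of 1121503 CpGs with at least 20% at day 0, the Wald test after Benjamini-Hochberg adjustment called 2392 slowed, or 0.213%, and 35 sped up, or 0.00312%. At an unadjusted p under 0.05, 127080 had slowed and 8984 had sped up. The median slope was -3.18% per day before day 17 and -2.17% after it, and the change of slope was positive at 71.9% of CpGs. Its median was 0.843% per day against a median standard error of 1.52% per day, so the depth allowed a call at few CpGs. The count of slowed CpGs was 353 when the line began at day 10, without the day 8 column, with 2 sped up, and 1449 when the decay was given a floor of 8% of the day 0 level plus 0.25%. With the over-dispersion of 0.0055 neither direction had a call, while the unadjusted counts were 50386 slowed and 3500 sped up and 71.7% of changes were still positive.

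The slowed CpGs held their level after day 17. Their means at days 0, 8, 17 and 29 were 78.4%, 75.9%, 56.9% and 56.4%, whereas all fitted CpGs went from 66.3% through 59.0% and 45.0% to 36.6%. Of the 2392, 1017 had a higher value at day 29 than at day 17. These means describe CpGs chosen by their slope, and the slowed CpGs had a median of 662 reads at day 29 against 259 for all fitted. By position, 43.9% were intronic, 38.2% intergenic, 8.49% in coding exons and 6.77% in promoters, near the 41.4%, 38.6%, 8.59% and 8.90% of all fitted CpGs.

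The target-region assay gave the spread between replicates and the mock as background. It shared 259 CpGs with the capture table. The study describes the replicates as biological. The sources do not say at which step they were separated, so p-values measure the spread between these samples. Over the 253 shared CpGs with a level in every Cre sample compared, the mean levels of the 3 replicates were 18.0%, 18.96% and 19.3% at day 17 and 14.9%, 14.9% and 14.4% at day 29. The groups did not overlap and differed by -4.06 points (18.8% ± 0.662 to 14.7% ± 0.239, SD, n = 3 each, two-sided exact permutation p = 0.1, the smallest p that 3 against 3 allows). In the capture the same CpGs went from 15.1% to 13.0%, a change of -2.12 points, so that 86.0% was kept where the target regions after Cre kept 78.4%.

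The mock was also lower at day 29. Over 245 shared CpGs its replicates had 30.9%, 30.5% and 32.1% at day 17 and 27.8%, 27.7% and 28.6% at day 29. The groups did not overlap and differed by -3.12 points (31.2% ± 0.788 to 28.1% ± 0.509, SD, n = 3 each, two-sided exact permutation p = 0.1, the smallest p that 3 against 3 allows). The capture has no mock, so how much of its late loss also occurs without Cre could not be measured genome-wide.

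Over the 94 shared CpGs with at least 20% at day 0 and a level in every sample, the 2 arms could be set side by side. After Cre the replicates had 37.5%, 40.2% and 41.5% at day 17 and 32.7%, 32.8% and 32.3% at day 29. The mock replicates had 62.2%, 61.9% and 64.0% at day 17 and 57.2%, 57.9% and 60.3% at day 29. Both arms were lower at day 29, with changes of -7.12 points after Cre (SE 1.18) and -4.24 points in the mock (SE 1.13). The Cre change minus the mock change was -2.89 points with an SE of 1.63, and this difference was not tested.

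Before day 17 the arms diverged more. From day 8 to day 17 the mean after Cre went from 50.1% to 39.7% and the mock from 62.1% to 62.7%, so the Cre change minus the mock change was -11.0 points with an SE of 2.03. Cre-treated cells had 80.7% of the mock level at day 8, 63.4% at day 17 and 55.8% at day 29. The capture went from 44.7% to 32.9% and 28.8% at these CpGs.

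**Figure D3:**
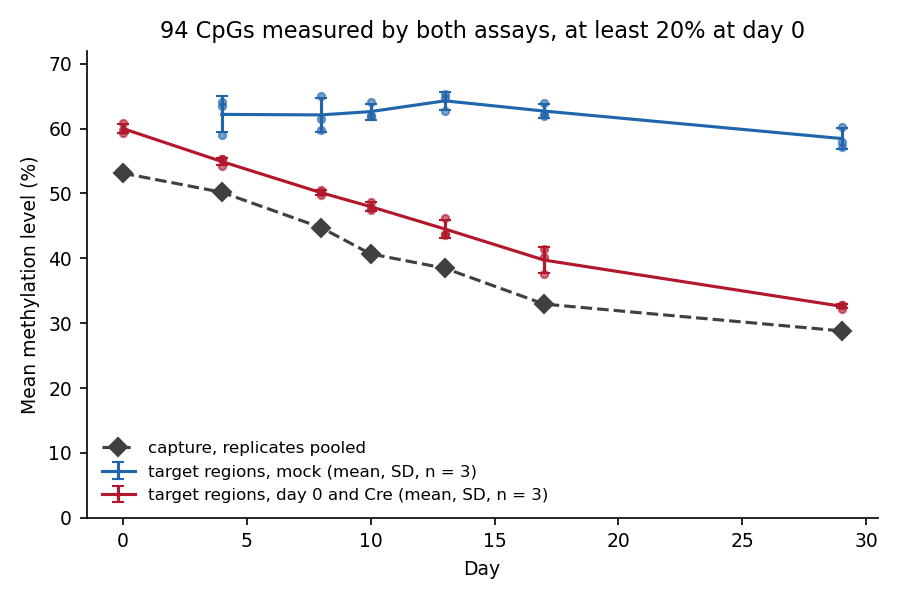
Mean methylation level in percent against day over 94 CpGs measured by both assays, with at least 20% at day 0; dots are replicates of the target-region assay, lines and bars their mean and SD (n = 3), and diamonds the pooled capture columns. The mock stays between 58.5% and 64.3% in mean and is at its lowest at day 29, and Cre-treated cells go from 39.7% at day 17 to 32.6% at day 29.

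The slower late loss was also seen in the group means after Cre. Over the 94 CpGs the mean lost 2.58% per day in days 8 to 17 and 1.65% in days 17 to 29. Rates for single replicates join samples by replicate number, as the study did when it fitted each replicate over the days. Same-numbered samples did not deviate alike after Cre, however. The rates were computed over 105 CpGs with at least 20% at day 0 and a level in all Cre samples. They ran from 2.21% to 3.38% per day in days 8 to 17 and from 1.19% to 2.15% in days 17 to 29, so the nearest values almost met. In days 13 to 17 they ran from 1.83% to 5.18%, which overlaps the later range, and for replicate 3 the later rate of 2.15% was the higher one. The capture gave 3.53%, 4.09% and 1.27% in days 8 to 17, 13 to 17 and 17 to 29 at these CpGs.

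At 56 of these 105 CpGs (53.3%) all 3 replicates at day 29 lay below all 3 at day 17, and at 0 of them above. In the mock the same held at 20 of 100 CpGs (20.0%), again with 0 above. Of the 105, 28 had been called lower in the capture, where 41.6% of all CpGs with at least 20% at day 0 were called lower. All 28 had a lower mean in the target regions. Groups did not overlap at 18 of the 28, beside the 56 of all 105. Across the 105 CpGs, which share libraries and regions, the changes in the 2 assays had a Pearson r of 0.456 and a Spearman rho of 0.404. These coefficients are a description across CpGs, which are not replicates.

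Sequence beside the CpG went with the share kept. Among CpGs with at least 50% at day 0, those with A or T on both sides kept 80.1%, those with A or T on 1 side 82.9% and those with G or C on both sides 85.2%. Counted on both strands together, ACGT was lowest with 79.9%, and CCGG and GCGC were highest with 85.7% and 85.8%. The classes differed in their day 0 level, from 72.2% with A or T on both sides to 76.6% with G or C on both sides. Weighted to equal day 0 levels in bins of 5 points, a choice made after the values were seen, the shares were 82.4%, 83.0% and 83.7%, so most of the spread went with the day 0 level. ACGT then kept 81.5%, GCGC 83.8% and CCGG 84.4%. TCGA, with A or T on both sides, also kept 83.8%, so the order of contexts changed.

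CpG density showed the larger difference. CpGs with no other CpG within 100 bases kept 80.3%, those with 3 to 4 neighbours 83.1% and those with 9 or more 87.0%. With equal day 0 levels the shares were 82.2%, 82.8% and 85.8%. Both features together ranged from 76.7% for isolated CpGs with A or T on both sides to 87.4% for CpGs with 9 or more neighbours and G or C on both sides. CpGs were also classed by the sequence within 250 bases, as CpG-rich with a ratio of observed to expected CpGs of at least 0.6 and at least 55% G and C, as intermediate with a ratio of at least 0.4, and as CpG-poor otherwise. CpG-poor sequence kept 82.3% (52.9% to 43.6%), intermediate sequence 85.1% and CpG-rich sequence 87.5% (50.7% to 44.4%). Equal day 0 levels left this order in place, at 82.6%, 84.1% and 88.0%.

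The level of the same CpG in wild-type cells separated the courses further. TTKO CpGs with at least 50% at day 0 but under 20% in wild type kept 75.9% of their day 17 level, those with 40 to 60% in wild type kept 79.1%, and those with 80% or more kept 94.9%. In levels, the first class went from 39.1% to 29.7% and the last from 77.8% to 73.8%. Called-lower CpGs made up 46.6%, 50.05% and 11.7% of these classes. Weighted to equal day 0 levels in 10 of 10 bins, the class of 60 to 80% in wild type kept 83.6%, beside 86.4% as measured. The classes under 20%, 20 to 40% and 40 to 60% kept 82.0%, 80.8% and 81.0% when weighted, so their order was not kept. The lowest of them could be weighted in 9 of 10 bins. The top class could be weighted in only 7 of 10 bins, which left it with a day 17 level of 68.8% beside 49.8% to 51.7% in those 3 classes, so its weighted share of 91.8% does not stand at equal day 0 levels.

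**Figure D4:**
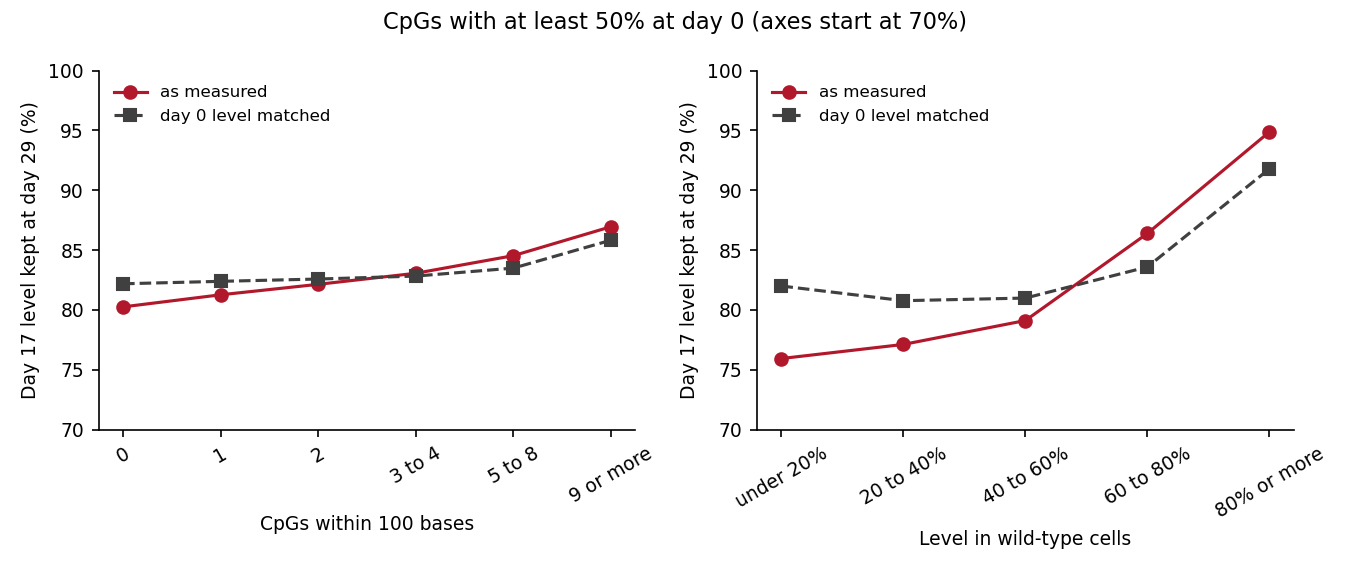
Share of the day 17 level kept at day 29, in percent, for CpGs with at least 50% at day 0, against the number of CpGs within 100 bases (left) and the level in wild-type cells (right); axes start at 70%. Circles are values as measured and squares those weighted to equal day 0 levels, which range from 82.2% to 85.8% on the left and from 80.8% to 91.8% on the right, where the top class was weighted in only 7 of 10 bins.

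Gene annotation made little difference. For CpGs with at least 50% at day 0, those in UTRs kept 81.4%, in promoters 81.5%, in introns 82.7%, between genes 83.5% and in coding exons 84.6%. With equal day 0 levels the range shrank to 81.4% in UTRs to 83.5% between genes. A promoter reaches here from 1000 bases before to 500 bases after a transcription start. Over all CpGs irrespective of day 0 level, promoters went from 6.57% at day 17 to 5.30% at day 29, with 6.79% of their CpGs called lower, while introns went from 33.0% to 26.8% with 31.9% called lower.

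Chromosomes differed by a few points. CpGs with at least 50% at day 0 kept from 80.9% on chromosome 15 to 85.4% on chromosome 1 among the autosomes, 83.1% on X and 93.3% on Y, where 145 CpGs were measured. Read coverage was not stable on 2 chromosomes. The median ratio of day 29 to day 0 coverage was 1.13 on chromosome 11, and that of day 17 to day 0 was 0.891 on chromosome 6. Both kept shares near the rest, 83.5% and 83.1%. Without them 414439 CpGs were lower and 1415 higher in Fisher's exact test, and the mean change was -4.48 points.

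In 1723 windows of 1000000 bases with at least 100 such CpGs, the share kept had a median of 83.6% and a range of 73.2% to 94.1%, and 0 windows had a higher mean at day 29. The highest autosomal window was chr1:140000001-141000000 around Lhx9 and Ptprc, from 57.4% to 53.5%, and the highest of all was the first window of Y. Across windows the share kept had a Spearman rho of 0.88 with the share of the day 0 level left at day 17, and both shares contain the day 17 level. The rho with the day 0 mean of the window was 0.71, so the share kept after day 17 also went with the starting level.

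Gene by gene, 1489 promoters of protein-coding genes had at least 5 CpGs and a mean of at least 50% at day 0. Their median share kept was 83.7% (range 44.8% to 104%), and 8 had a higher mean at day 29. For 4823 gene bodies with at least 20 CpGs the median was 82.0% (58.5% to 106%), and 5 had a higher mean. These are means over pooled columns and carry no test of their own, and the genes below were taken from the ends of each ranking. Calls are of single CpGs. How often a CpG was called lower went with its day 0 level. Of CpGs with at least 50% at day 0, 45.2% were called lower in promoters, 44.3% in introns, 36.1% in coding exons and 45.8% in UTRs, which is the background for genes of that level. Over CpGs of any level it was 6.79% in promoters, whose mean at day 0 was 10.2%, 31.9% in introns and 20.9% in coding exons, with means of 49.0% and 40.3%. Of all promoter CpGs 0.134% were called higher.

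The promoter that kept least was that of Tmem173, the STING adaptor of innate immune sensing, with 57.0% at day 0, 29.6% at day 17 and 13.3% at day 29. It kept 44.8%, and 6 of its 9 CpGs were called lower. Psors1c2 went from 27.7% to 12.4% (3 of 5 CpGs), Gm17505 from 37.1% to 19.2% (5 of 5) and Mos, the kinase of oocyte meiosis, from 35.6% to 18.9% (3 of 5). Fxyd4, a regulator of the sodium pump, went from 32.0% to 17.3%, with 7 of 8 CpGs called lower. These promoters have 5 to 9 CpGs each, and their day 17 levels lay between 27.7% and 37.1%.

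At the other end, the promoters with the largest shares stood higher at day 17. The olfactory receptor gene Olfr212 had 89.5% at day 0, 84.2% at day 17 and 84.7% at day 29. The 5430421N21Rik promoter went from 76.4% to 79.5%, Gm10036 from 76.2% to 78.3% and Wdr20b from 54.0% to 54.5%. Gm10722 went from 63.3% to 65.9% with medians of 105 and 81 reads, and its day 8 value of 49.2% departed from its neighbours in time, 68.1% and 67.9%. Of the CpGs of these promoters 1 was called higher, in 5430421N21Rik, and 0 were called lower.

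Among gene bodies Nqo1, a quinone reductase, kept least: 59.4% at day 0, 28.2% at day 17 and 16.5% at day 29, with 18 of 21 CpGs called lower. Mog, a protein of the myelin sheath, went from 26.2% to 15.4% (14 of 24 CpGs called lower), and Tst, the sulfurtransferase rhodanese, from 37.2% to 22.2% (23 of 27). Mmp21, a matrix metalloprotease, went from 23.1% to 14.2% and Gm5887 from 35.9% to 22.02%, with 16 of 21 and 20 of 23 CpGs called lower.

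The gene bodies with the largest shares included the imprinted gene Mest, with 57.6% at day 0, 44.9% at day 17 and 47.4% at day 29, where 5 of 54 CpGs were called higher. Lhx9, a LIM homeobox factor of gonad and brain development, went from 49.6% to 51.8%, with 9 of its 100 CpGs called higher and 2 lower. D1Pas1, an RNA helicase gene of the testis, went from 42.8% to 45.5% (1 of 46 higher). AU022751 went from 80.5% to 83.5% and Gm7120 from 79.6% to 80.3%. Since these genes were chosen by their day 29 level, their counts of CpGs called higher describe the choice.

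Imprinted genes, whose parental copies differ in methylation, varied widely. Of 22 annotated list members 3 promoters qualified, Nap1l5 (32.3% to 27.5%), Meg3 (38.5% to 33.0%) and H19 (53.3% to 46.9%), with a median share of 85.8% beside 83.7% for all promoters. Over the whole list 169 of 1600 promoter CpGs were called lower, 10.6%, and 4 higher. The median day 0 level of these promoters was 30.2%, between the levels behind the 6.79% and the 45.2%. Imprinted promoters often start near an intermediate level, so the 15 with at least 20% at day 0 were also listed. Airn, the antisense RNA of the Igf2r locus, kept least (39.5% to 28.4%), and Impact (44.2% to 43.8%) and Peg10 (38.4% to 38.8%) kept 99.1% and 101%. Peg3 (39.8% to 35.7%), Snrpn (27.2% to 24.8%) and Mest (34.7% to 33.3%) lay between them, at 89.8%, 91.2% and 96.1%. At the 7 imprinted gene bodies that qualified the median share was 81.6%, beside 82.0% for all bodies, with 420 of 1893 CpGs called lower over the list (22.2%, at a median day 0 level of 47.1%, beside 31.9% of all intronic and 20.9% of all coding CpGs).

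Promoters of germline genes, which are methylated in somatic cells, kept a median of 91.1% in the 13 of 23 that qualified. Stra8, which is needed to enter meiosis, was the lowest with 57.6%, 32.1% and 23.8% at days 0, 17 and 29, and 29 of its 53 CpGs were called lower. Hormad1, a protein of the meiotic chromosome axis, went from 43.5% to 37.1% (14 of 38). Mov10l1, a helicase of the piRNA pathway, went from 59.1% to 56.7% (1 of 38), and Fkbp6, of the same pathway, stood at 74.4% and 74.0% with 0 of 54 CpGs lower and 1 higher. Over the list, 123 of 845 promoter CpGs were called lower (14.6%) and 2 higher, beside 6.79% and 0.134% of all promoter CpGs. The median day 0 level of these promoters was 57.6%, and promoter CpGs with at least 50% at day 0 were called lower at 45.2%. The list also counts CpGs under 50%, so neither share is of a like set. Germline gene bodies kept a median of 87.4% in the 5 that qualified, from Fkbp6 (37.3% to 28.8%) to Tdrd1 (65.8% to 63.9%). Of the body CpGs of the list, at any level, 100 of 355 were lower (28.2%, at a median day 0 level of 63.7%). The share was 31.9% of intronic and 20.9% of coding CpGs at any level, and 44.3% and 36.1% of those with at least 50% at day 0.

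The promoters of pluripotency genes, which embryonic stem cells express, were largely unmethylated. Their median promoter level was 2.10% at day 0, 1.77% at day 17 and 1.34% at day 29. Of their promoter CpGs 42 of 1218 were called lower (3.45%) and 0 higher, beside 6.79% and 0.134% of all promoter CpGs. Only the promoters of the nodal inhibitors Lefty2 (31.6% to 24.3%) and Lefty1 (30.3% to 27.4%) had at least 50% at day 0. In the bodies of these genes 322 of 1728 CpGs were lower (18.6%, at a median day 0 level of 14.2%, beside 31.9% of all intronic and 20.9% of all coding CpGs).

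Genes of the methylation machinery had no promoter that qualified, with a median of 2.04% at day 29. Of their promoter CpGs 45 of 755 were called lower (5.96%), beside 6.79% of all promoter CpGs. The bodies of Tet3 (50.3% to 42.4%, 27 of 116 CpGs called lower) and Tdg, the glycosylase that removes oxidised methylcytosine (58.5% to 49.8%, 13 of 33), kept 84.2% and 85.1%. Of all body CpGs of this list 271 of 1016 were lower (26.7%, at a median day 0 level of 35.8%, beside the same 31.9% and 20.9%). Dnmt3a itself had 43.3% at day 0 in the body and went from 25.2% to 18.0%, with 71 of 203 CpGs called lower. Dnmt3b had 32.7% at day 0 and went from 16.8% to 10.7% (26 of 61). Their background is also the 31.9% of all intronic and 20.9% of all coding CpGs.

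Of the developmental genes, 2 promoters of lineage regulators and 2 of Hox genes qualified. Gata1, the factor of red cell differentiation, went from 35.7% to 23.5% (8 of 12 CpGs called lower) and Sox10, a neural crest factor, from 36.7% to 27.6% (10 of 22). Hoxb4 went from 34.8% to 24.6% (18 of 20) and Hoxb3 from 30.0% to 22.1% (21 of 52), which are shares of 70.5% and 73.8%. The day 0 means of these 4 promoters lay between 53.7% and 61.2%, where CpGs of the whole table kept 65.4% (50 to 60%) and 71.7% (60 to 70%). Over the whole lists 165 of 1417 promoter CpGs of lineage regulators (11.6%) and 266 of 2176 of Hox genes (12.2%) were lower, with 3 and 2 higher. Of all promoter CpGs 6.79% were called lower and 0.134% higher. The median day 0 level was 11.9% in both lists, and the mean of all promoter CpGs was 10.2%. In the bodies the shares were 585 of 2866 (20.4%) and 775 of 4427 (17.5%), at median day 0 levels of 26.4% and 19.4% and beside the 31.9% of all intronic and 20.9% of all coding CpGs, with Gata4 (32.7% to 26.4%), Pdx1 (33.0% to 26.3%) and Hoxb13 (27.5% to 19.8%) among those that qualified.

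Ribosomal protein genes, which every cell uses, had a median promoter level of 1.46% at day 17 and 1.44% at day 29, and 160 of 6137 promoter CpGs were lower (2.61%) and 19 higher, beside 6.79% and 0.134% of all promoter CpGs. This list was drawn by name and holds 10 Rps6k kinase genes among its 91 members, and its promoters at 50% or more were those of Rpl3l (47.8% to 38.9%) and Rpl39l (65.9% to 64.9%). Its bodies had 562 of 2903 CpGs lower (19.4%, at a median day 0 level of 17.1%, beside the same 31.9% and 20.9%). Olfactory receptor genes, silent in embryonic stem cells, had 22 of 1087 promoters with at least 5 CpGs in the table. The 18 that qualified kept a median of 87.7%, from Olfr287 (55.2% to 41.8%) to Olfr212 (84.2% to 84.7%). Of the promoter CpGs of the list, at any level, 77 of 241 were lower (32.0%) and 0 higher, at a median day 0 level of 71.7%. The share lower was 6.79% of all promoter CpGs and 45.2% of those with at least 50% at day 0.

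At the CpG near Plxnc1, a semaphorin receptor gene in whose intron it lies, the level was 75.4% at day 0, 66.4%, 63.4%, 55.9% and 53.0% at days 4, 8, 10 and 13, then 49.7% at day 17 (76 of 153 reads, 41.9% to 57.5%) and 13.2% at day 29 (17 of 129 reads, 8.39% to 20.1%). It was chosen for the last of these steps, which spans 12 days. The 2 CpGs near Pdpr, which encodes a regulator of pyruvate dehydrogenase phosphatase, lie 6454 and 6484 bases from the gene and can share reads. The former went from 83.7% at day 0 and 65.9% at day 13 to 61.5% at day 17 (126 of 205 reads, 54.6% to 67.9%) and 25.8% at day 29 (48 of 186, 20.1% to 32.5%). The latter went from 79.4% and 57.2% to 46.8% (72 of 154, 39.0% to 54.6%) and 11.5% (15 of 130, 7.12% to 18.2%). The next CpG in this order had a change of -35.14 points, against -35.21 for the last one named.

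The rises were smaller. In a coding exon of Hcn4, the pacemaker channel of the heart, the level was 69.0%, 46.8% and 52.2% at days 0, 8 and 13, then 51.5% at day 17 (137 of 266 reads, 45.5% to 57.4%) and 69.5% at day 29 (196 of 282, 63.9% to 74.6%). In a coding exon of Kcna3, a potassium channel of lymphocytes, it was 76.4% and 80.3% at days 0 and 13, then 66.2% at day 17 (180 of 272, 60.4% to 71.5%) and 83.5% at day 29 (208 of 249, 78.4% to 87.6%). The intergenic CpG nearest to Xcl1, 63947 bases away, went from 79.3% at day 0 and 64.2% at day 13 to 56.4% at day 17 (101 of 179, 49.1% to 63.5%) and 72.7% at day 29 (104 of 143, 64.9% to 79.4%). In Kcna3 and near Xcl1 the day 17 value was thus the lowest of the course. The last rise named was 16.30 points and the next in order 15.15.

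Plateaus were sought among 673644 CpGs with 100 reads in every TTKO column and at least 50% at day 0. Of these, 4917 had lost 30 points or more by day 13 and still held at least 20% at day 29, with means of 74.4%, 41.95%, 37.1% and 26.9% at days 0, 13, 17 and 29. Most of them went on to lower values: 4743 were lower at day 29, by a median of 10.5 points over the class, and 774, or 15.7%, lay within 5 points of day 17. Since a level of at least 20% at day 29 was required, this class leaves out CpGs that fell further.

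The CpG near Myst4, a histone acetyltransferase gene 15756 bases away, had 83.8% at day 0, 49.7% and 50.3% at days 10 and 13, 48.3% at day 17 (86 of 178 reads, 41.1% to 55.6%) and 48.3% at day 29 (72 of 149, 40.4% to 56.3%). The intronic CpG in Tmem44 went from 75.5% at day 0 and 40.7% at day 13 to 33.4% at both days (192 of 575 reads, 29.7% to 37.3%, then 167 of 500, 29.4% to 37.6%). The CpG nearest to Gm9843 went from 66.2% and 35.04% to 25.5% at both days, with 683 and 597 reads. They are the CpGs whose levels at days 17 and 29 were closest, and their intervals still leave room for changes of several points.

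Most CpGs called higher had hardly any methylation. Of the 1716, 1398 had under 10% at day 0, as 43.2% of the whole table did, and 1334 under 1% at day 17, and their medians were 0.210% at day 17 and 3.18% at day 29. Promoters held 928 of them, 54.1% beside 31.7% of the table. A rise of 10 points or more was called at 154. At 240 of the 1716 the day 0 level was 50% or more, and these had medians of 73.4% at day 17 and 84.4% at day 29.

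Rises of many neighbouring CpGs together were rare. CpGs no more than 200 bases apart were joined into regions, a step added after the values were seen, and 7499 regions had at least 20 CpGs and a mean of 30% or more at day 0. Their median change was -6.84 points (range -16.6 to 4.92), and 35 regions, 0.467%, had a higher mean at day 29. Of the 240 CpGs called higher from 50% or more, 35 lay in these regions, 19 of them near Lhx9 or Errfi1. These regions were picked by their change, so no test is given.

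The largest rise lay in Lhx9, at chr1:140737299-140738567, with 50 of its 64 CpGs intronic, 9 in coding exons and 5 in the promoter. Its stretch of 100 bases with the most CpGs called higher, 3 of them, is shown with CpGs in capitals. It was chosen by these calls, so its rise describes the choice. It holds 15 CpGs of the table whose mean was 74.7% before Cre, 42.04% at day 17 and 50.8% at day 29:
Lhx9, chr1:140738298-140738397: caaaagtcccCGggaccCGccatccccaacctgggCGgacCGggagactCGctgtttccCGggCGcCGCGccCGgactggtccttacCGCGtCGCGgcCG
The next region lies 10731 bases from Errfi1, an inhibitor of EGF receptor signalling. Its stretch, chosen in the same way, has 4 CpGs called higher. It holds 11 CpGs of the table with means of 69.9%, 57.6% and 64.5% at the same days:
Errfi1, chr4:150254058-150254157: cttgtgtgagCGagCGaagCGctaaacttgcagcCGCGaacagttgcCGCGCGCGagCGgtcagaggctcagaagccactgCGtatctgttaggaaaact

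Over its 64 CpGs the Lhx9 region had 77.5% before Cre, then 59.3%, 59.2%, 57.6% and 56.6% at days 4, 8, 10 and 13, and lastly 53.7% and 58.6% at days 17 and 29, with 17.9% in wild-type cells. Most of its fall came before day 4, followed by a smaller fall to day 17 and a rise to day 29. At day 29, 50 of the 64 CpGs had a higher value than at day 17, and Fisher's exact test called 9 higher and 0 lower. Single CpGs spread from 29.4% to 80.3% at day 17 and from 23.4% to 81.8% at day 29.

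The 55 CpGs of the Errfi1 region, all intergenic, had 72.4%, 63.3%, 61.4%, 57.1%, 58.5% and 62.5% at days 0, 4, 8, 13, 17 and 29, with 12.02% in wild type. Fisher's exact test called 10 of them higher and 0 lower, and 48 had a higher value. In both regions TTKO cells before Cre thus stood far above wild-type cells. The replicates of these regions were not separable in the capture.

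**Figure D5:**
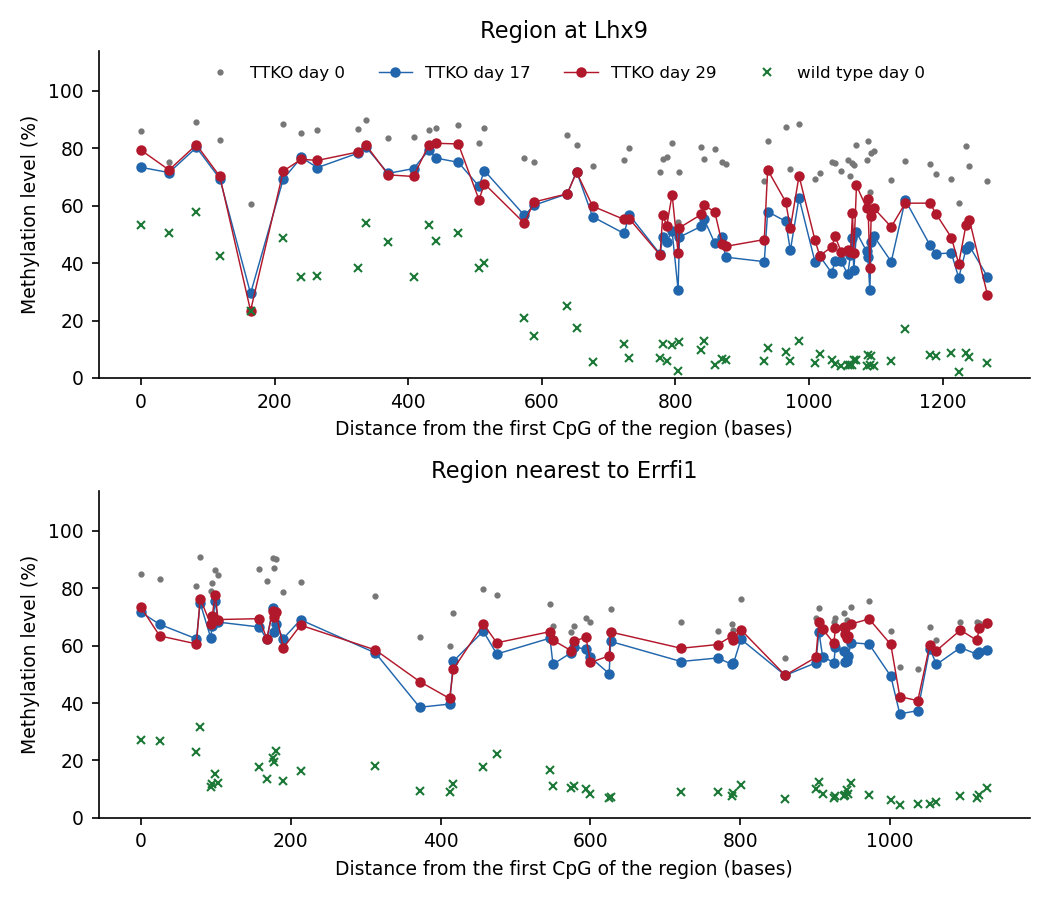
Methylation level in percent of each CpG in the regions at Lhx9 (64 CpGs) and nearest to Errfi1 (55 CpGs), against the distance in bases from the first CpG; small dots are TTKO at day 0, large dots and lines TTKO at day 17 and day 29, and crosses wild type at day 0. Day 29 lies above day 17 at 50 and 48 CpGs, and both lie above most wild-type values.

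A similar early fall was seen in an intronic region of Arl15, a gene for an ARF-like small GTPase, with 64.6%, 43.1%, 32.6% and 36.5% at days 0, 4, 17 and 29. It was also seen in a region 9694 bases from Moap1, with 36.4%, 16.3%, 12.8% and 14.5%. The region in Mest went from 51.3% at day 0 to 44.4% and 46.0%. In a coding exon of Dsp, the desmosomal protein desmoplakin, and near Gpr98 the levels stayed high, from 78.7% to 81.1% and from 87.0% to 89.1%. Of the 35 rising regions 6 (17.1%) kept under 80% of their day 0 level at day 4, beside 168 of all 7499 (2.24%), and 19 (54.3%) had at least 80% at day 0, beside 16.0% of all.

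The largest falls over regions were -15.7 to -16.6 points. A stretch of Pik3cd with 17 intronic and 3 UTR CpGs, a catalytic subunit of phosphoinositide kinase in lymphocytes, went from 72.4% at day 0 through 40.3% to 23.7%, with 16 of 20 CpGs called lower. Nhsl1 went from 46.2% to 29.9% (20 of 20), the promoter of Tspo2 from 49.8% to 33.6% (22 of 27) and an intron of the adenylyl cyclase gene Adcy6 from 44.7% to 28.8% (16 of 20). A region 1232 bases from Zbtb43 went from 53.6% to 37.9% (20 of 29). These regions too were taken from an end of the ranking, and their counts describe that choice.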

How the data were processed

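DNA of TTKO and wild-type cells was enriched with the SureSelect mouse methylation capture and sequenced after bisulfite conversion. The authors used QuasR (Rbowtie for alignment to mm9, qMeth for calling CpGs). Their methods state a coverage filter of 50 over time points and replicates, and the table holds CpGs with at least 50 reads in every joined column. They deposited a read count (coverage) and a methylation percent per CpG, the 3 replicates of each day being joined. For target regions the authors deposited read counts and methylation as a fraction per replicate, with no level under 100 reads. Further columns hold the authors' inferred rates, TET activity and confidence and were not used. Methylated reads were coverage times level, rounded.

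Levels were compared per CpG with Fisher's exact test in numba 0.67.0, and slopes with a log-link binomial fit (python 3.11.15, numpy 2.4.6, scipy 1.17.1, pandas 2.3.3, matplotlib 3.10.9), both two-sided, Benjamini-Hochberg adjusted at 0.05 and tested on simulated data. The quasi-binomial model over replicates could not be fitted to joined replicates. Target regions were compared with exact permutation tests of the mean level per replicate. CpGs were placed on the mm9 sequence and GENCODE M1 genes. Groups came from the sample labels, which name no batch. Members and gene lists were chosen with earlier results of these data known, and named genes and CpGs are the 5 or 3 at each end of a ranking, with minima as given. Alternatives were the coverage limits, over-dispersion, a minimum difference, weighting by reads, the fitted days and floor, class windows, chromosomes, and leaving out or blocking replicates.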

Additional observations from a re-analysis of the deposited data

How the results depend on the processing

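The direction of the mean change and the excess of lower over higher calls held under each alternative tried. The mean change was -4.41 points with at least 100 reads, -4.81 weighted by reads, -4.43 with at most 1000 reads and -4.48 without chromosomes 6 and 11, and the share kept was 80.9% weighted by reads, 81.5% for CpGs with 20% at day 0 and 81.5% without these chromosomes. Calls depended on the variance model: with over-dispersion 236260 CpGs were lower and 43 higher. Fisher's exact test without over-dispersion, but with a difference of at least 10 points required, gave 332687 lower and 154 higher. Slowed CpGs numbered 1449 with a floor under the decay and 353 when the line began at day 10, with 2 then sped up, and 0 in either direction with over-dispersion. The share of positive slope changes, 71.9% as reported, was 71.7% with over-dispersion, 65.1% with the floor, 64.1% with a start at day 4 and 69.2% with a start at day 10. With a start at day 4, unadjusted p under 0.05 gave 96222 slowed and 16153 sped up. The difference between flanks of G or C and of A or T was 5.40 points from 20% at day 0 and 1.30 at equal day 0 levels. For 9 or more against 0 neighbours it was 5.54 points from 20% at day 0, 5.11 within 250 bases and 3.64 at equal levels. For coding exons against promoters it was 4.57 points with promoters of 2000 bases to each side and 0.339 at equal levels. The causes of these moves were not tested. Leaving out chromosomes and equal day 0 levels were chosen after seeing the data.

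In the target regions, leaving out each replicate in turn gave changes of -4.43 to -3.78 points after Cre and -3.43 to -2.67 in the mock. Replicate numbers did not pair the samples: deviations of same-numbered samples correlated between -0.109 and -0.038 after Cre and between -0.066 and 0.129 in the mock. With the replicate block the changes were -4.06 and -3.12 points, and an exact sign-flip test gave p = 0.25, the smallest p it allows. Depth limits single CpGs in the capture: joined replicates hold no spread between samples, and the slope test had a median standard error of 1.52% per day.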
